A study of Mus musculus with 9 samples.

Results

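Fgf21, Gdf15, Atf4 and 7 genes known as targets of the transcription factor ATF4 (Atf3, Ddit3, Trib3, Asns, Chac1, Sesn2 and Psat1) were followed while C2C12 cells, mouse myoblasts kept as an established line, differentiated. The 10 genes were taken by symbol from the 47729 genes of the count table, and each matched 1 Ensembl gene. The group was chosen by measured values: Fgf21 was selected on its low counts in the knockout libraries, and the other 9 were added to ask whether the rest of the ATF4 response was low as well, with results of these data already known, so every difference between a knockout and the control is given for these 10 genes as a description without a test. All 10 passed the filter on low counts, which kept 13324 genes.

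The study compared 3 C2C12 populations: a control carrying a non-target guide (WT), and populations in which CRISPR-Cas9 was directed at the clock gene Per1 (Per1KO) or Per2 (Per2KO). All were grown in medium with fetal bovine serum, sampled there as day 0, and moved to medium with horse serum, in which myoblasts fuse into myotubes, for sampling on days 3 and 5. Each population and day gave 1 library, 9 in all. Whether a knockout was a single clone or a pool of cells was not given in the sources used here, nor whether the days came from separate cultures. The labels call the tissue whole muscle, whereas the growth protocol describes cultured cells. The 6 myoblast and myotube markers (Myod1, Myf5, Des, Myog, Ckm and Acta1) summed to between 1443 and 13868 CPM (counts scaled to a common library size, here by the TMM method of edgeR). The 4 hepatocyte markers, examined because liver is the main source of circulating FGF21, summed to at most 0.141 CPM in any library, and Apoa1 and Serpina1a had no count at all. The 4 adipocyte markers summed to at most 0.0591 CPM. Endothelial markers summed to at most 3.62 CPM and leukocyte markers to at most 2.20 CPM. Neural markers summed to between 39.8 and 198 CPM in WT and between 53.7 and 193 CPM in the knockouts.

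When a cell is short of an amino acid, or has unfolded protein in its endoplasmic reticulum, failing mitochondria or certain viral RNAs, a dedicated kinase phosphorylates the translation factor eIF2 alpha. General protein synthesis slows, while the ATF4 mRNA is translated better because of short upstream reading frames. ATF4 then switches on genes for amino acid synthesis and import, for tRNA charging and for further stress regulators. In muscle this integrated stress response also releases FGF21 and GDF15, hormones that act on other organs and serve as markers of mitochondrial muscle disease.

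Depth separated the populations. The WT libraries held between 5020385 and 6773320 counts and the knockout libraries between 41997763 and 48051824, and only the WT titles carry a lane suffix. A difference between a knockout and WT therefore cannot be told apart from a difference in depth or sequencing run. The mRNA of the edited genes gave no clear check of the labels. Per1 was at 35.6 CPM in WT, 20.9 CPM in Per1KO and 16.5 CPM in Per2KO on day 0, and on days 3 and 5 the knockout values, 28.9 to 32.9 CPM, overlapped those of WT. Per2 was at 9.74 to 20.5 CPM in WT, 6.59 to 10.6 CPM in Per1KO and 3.50 to 9.13 CPM in Per2KO. In bulk RNA, fewer cells of a type and less RNA per cell cannot be told apart either. The names Per1KO and Per2KO are those of the labels throughout.

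Part of the group carries a known ATF4 binding motif near the start site. ATF4 binds the C/EBP-ATF response element, searched as TGATGNAA on both strands of RefSeq windows on GRCm38.p6 that run from 250 bases before to 50 bases after each start site. It was present in 5 of the 12 windows of the 10 genes, those of Fgf21, Atf3, Chac1, Asns and Trib3 but not those of the other 5 genes, and in 3.97% of all 32851 windows. The stricter TGATGCAA, which every match to it also counts towards the first motif, was present in 3 of the 12 and in 0.895% of all windows. The canonical E-box CACGTG, the site used by the clock factors CLOCK and BMAL1, was present in windows of Fgf21 and Gdf15 and in 7.15% of all. The stretches below run 5′ to 3′ on the strand of the gene with positions counted back from the start site, and capitals mark these motifs. TTGCATCA is TGATGCAA read on the opposite strand.
Fgf21, 250 to 1 bases before the start site (chr7:45615491-45615740, minus strand): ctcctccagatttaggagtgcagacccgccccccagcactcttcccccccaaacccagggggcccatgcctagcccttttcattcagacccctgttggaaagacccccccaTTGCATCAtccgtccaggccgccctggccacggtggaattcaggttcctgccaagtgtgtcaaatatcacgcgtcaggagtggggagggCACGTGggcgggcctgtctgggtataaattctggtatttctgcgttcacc
Atf3, 140 to 81 bases before (chr1:191183414-191183473, minus strand): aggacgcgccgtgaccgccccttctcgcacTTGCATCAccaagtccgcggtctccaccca
Chac1, 223 to 164 bases before (chr2:119351019-119351078, plus strand): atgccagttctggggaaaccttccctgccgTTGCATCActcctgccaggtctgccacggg
Asns, 34 to 5 bases before (chr6:7693214-7693243, minus strand): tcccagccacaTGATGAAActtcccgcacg

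The Fgf21 stretch is shown whole because it holds both motifs, the response element starting 139 bases and the E-box 50 bases before the start site. The other stretches are shown for the position of the element, which starts 110 bases before the start site in Atf3, 193 in Chac1 and 23 in Asns. The Asns stretch lies in an exon of a longer GENCODE transcript. In Trib3 the match starts at base 15 of the transcript. Matches are a description of the sequence only. Of the 48 genes listed as other ATF4 targets, 36 had windows in the table, 46 in all, and 12 of these held TGATGNAA (26.1%).

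Fgf21 (ENSMUSG00000030827, chromosome 7, 45613886 to 45615490, minus strand, GRCm38) encodes fibroblast growth factor 21, a secreted metabolic hormone. The WT libraries had 6.78 CPM on day 0 (48 counts, exact Poisson 95% interval 5.00 to 8.99), 59.3 CPM on day 3 and 90.2 CPM on day 5. In Per1KO it was at 0.122 CPM on day 0 (6 counts, 0.0447 to 0.265), 0.683 CPM on day 3 and 1.20 CPM on day 5. In Per2KO it was at 1.02 CPM on day 0 (52 counts, 0.765 to 1.34), 0.331 CPM on day 3 (16 counts) and 0.901 CPM on day 5. All 6 knockout libraries lay below all 3 WT libraries, with the highest knockout value, on day 5 in Per1KO, under the lowest WT value, on day 0. This was so for 1 of the 10 genes, Fgf21 itself, and for 8.11% of the genes tested; since low Fgf21 was the reason for the choice, nothing is read from it.

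The gap was widest on day 3, when WT Fgf21 was 86.8 times the Per1KO level (95% counting interval 60.6 to 128) and 179 times the Per2KO level (109 to 317). The day 5 ratios were 75.1 (Per1KO) and 100.1 (Per2KO), and those of day 0 were 55.7 and 6.62. Such intervals cover counting error only, since reads lacking molecular identifiers may be copies of one molecule. Between day 0 and day 5 the Fgf21 level was 13.3 times as high in WT (9.85 to 18.3) and 9.87 times as high in Per1KO (4.23 to 28.2), though from 6 counts in the latter. In Per2KO the same ratio was 0.880, with an interval of 0.561 to 1.37 that spans no change. Per kilobase of exon, the Fgf21 level in WT on day 5, at 94.8 CPM, was above those of Ddit3 (58.3), Gdf15 (38.6), Sesn2 (31.3) and Atf3 (27.4), while on day 0 it was the lowest of the 10 at 7.13. In both knockouts it was the lowest of the 10 on every day.

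**Figure D1:**
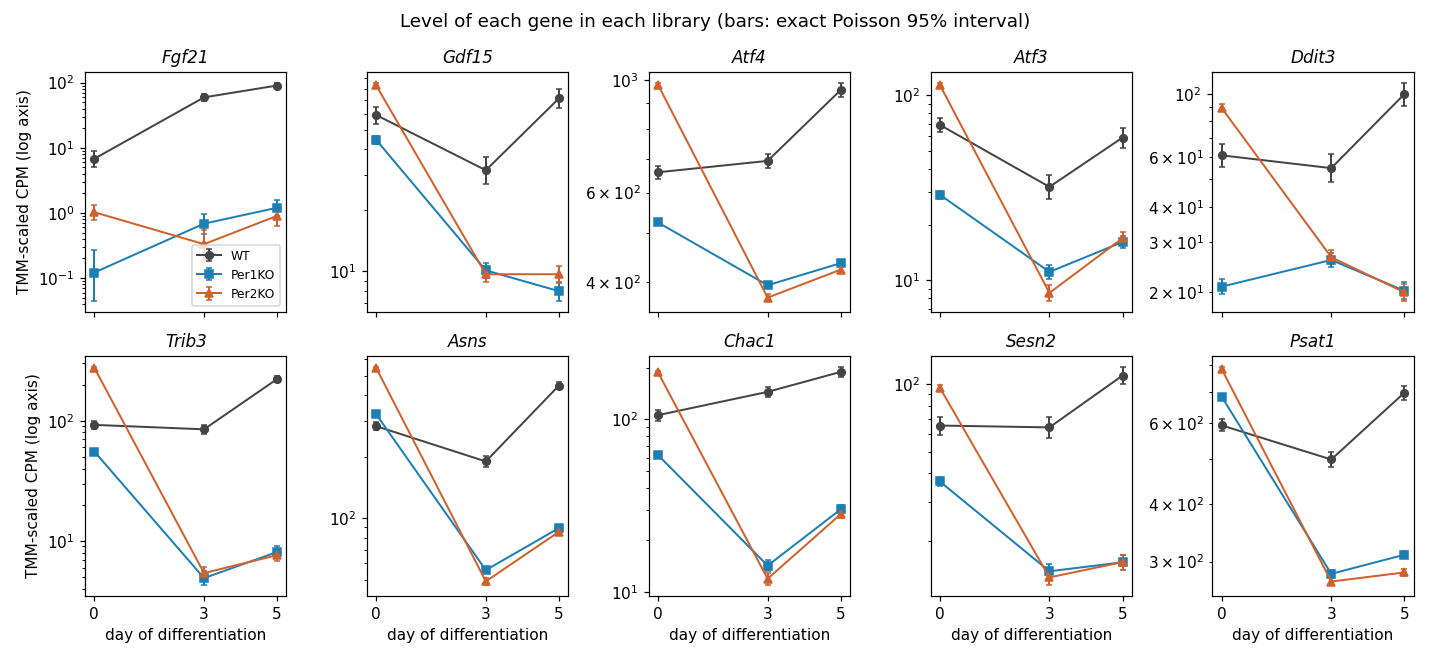
Level of each of the 10 genes by day of differentiation (x axis) in TMM-scaled CPM (log axis, its range set for each gene), with grey circles for WT, blue squares for Per1KO and orange triangles for Per2KO, 1 library per point and exact Poisson 95% intervals as bars. On days 3 and 5 the WT point lies above both knockout points in all 10 panels, whereas on day 0 the Per2KO point is the highest in every panel but that of Fgf21.

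Atf4 itself (chromosome 15, 80255184 to 80257541) was lower in the knockouts on the later days by less than most of the group. It was at 658, 693 and 955 CPM in WT on days 0, 3 and 5. In Per1KO it was at 524, 394 and 436 CPM. In Per2KO it was at 978, 372 and 423 CPM. On days 3 and 5 the 4 knockout values lay below both WT values, by 1.76 to 2.26-fold within a day, while on day 0 the order was Per2KO, WT, Per1KO with intervals that did not overlap. Since ATF4 is controlled mainly through translation, its mRNA is only part of its activity, and protein was not measured.

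The other stress regulators followed the same order. Ddit3, which encodes CHOP, a factor that promotes cell death under lasting stress, was at 60.7, 54.7 and 99.8 CPM in WT on days 0, 3 and 5, at 20.9, 26.0 and 20.2 CPM in Per1KO, and at 89.3, 26.6 and 20.0 CPM in Per2KO. Its counts are uncertain, because a second annotated gene of the same name overlaps it on the same strand, Mars overlaps it on the opposite strand, the use of strand in counting is not given in the sources used here, and 8.31% of its 31-base words occur in other genes. Atf3, an early stress-induced repressor, was at 69.1, 31.9 and 58.9 CPM in WT, at 29.0, 11.1 and 16.1 CPM in Per1KO and at 113.5, 8.55 and 16.9 CPM in Per2KO. It was highest on day 0 in every population.

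Trib3, a pseudokinase that ATF4 and CHOP induce and that feeds back on ATF4, had the widest gap after Fgf21 on days 3 and 5 in both knockouts. It was at 92.4, 84.8 and 222 CPM in WT on days 0, 3 and 5. In Per1KO it was at 55.5, 4.91 and 8.10 CPM, and in Per2KO at 276, 5.40 and 7.62 CPM. On day 0 Per2KO therefore held 2.99 times the WT level (95% counting interval 2.76 to 3.23) and on day 5 WT held 29.2 times the Per2KO level.

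Genes of amino acid supply had smaller gaps. Asns, asparagine synthetase, was at 283, 190 and 447 CPM in WT, at 323, 55.6 and 89.4 CPM in Per1KO and at 545, 49.0 and 85.7 CPM in Per2KO. Psat1, an enzyme of serine synthesis, was at 592, 499 and 697 CPM in WT, at 684, 282 and 310 CPM in Per1KO and at 785, 272 and 284 CPM in Per2KO. Of its 31-base words, 3.56% occur in the processed pseudogene Gm12611. Asns and Psat1 were the genes of the group above WT on day 0 in Per1KO, by 1.14 and 1.15-fold.

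Chac1, which degrades glutathione, was at 106, 145 and 189 CPM in WT on days 0, 3 and 5, at 62.2, 14.2 and 30.1 CPM in Per1KO and at 188, 11.9 and 28.2 CPM in Per2KO. Sesn2, a leucine sensor that restrains mTORC1, was at 65.2, 64.0 and 109 CPM in WT, at 36.8, 14.7 and 16.1 CPM in Per1KO and at 96.2, 13.8 and 16.1 CPM in Per2KO; the gene Gm12981 lies over it on the same strand. Gdf15, the second secreted hormone of the response, was at 59.2, 31.6 and 71.5 CPM in WT, at 44.6, 10.1 and 7.98 CPM in Per1KO and at 82.9, 9.67 and 9.67 CPM in Per2KO. For each of these 3 genes the knockout values of days 3 and 5 lay below every WT value, and the day 0 values of Per2KO lay above that of WT.

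Whether low Fgf21 went together with low ATF4 targets is described here by day and was not tested, with 1 library for each population and day. On days 3 and 5 all 10 genes were below WT in both knockouts, and for all 10 the 4 knockout libraries of those days lay below both WT libraries, as they did for 24.6% of the genes tested. At least a 2-fold lower level was found for 8 genes in each knockout on day 3, where 7.67% (Per1KO) and 8.46% (Per2KO) of the genes tested were that far below WT. None of the 10 was as far above WT, as 8.86% and 9.16% of the genes tested were. On day 5 such a gap was found for 10 in each, where 9.10% and 9.07% were that far below and 9.52% and 9.73% that far above. On day 0 the genes divided: in Per1KO 8 were below WT, 3 of them by at least 2-fold (8.68% of genes tested), and none was 2-fold above (7.87%). In Per2KO on day 0 Fgf21 was 6.62-fold below WT (9.29% of genes tested were at least 2-fold below) while the other 9 were 1.33 to 2.99-fold above it, with Trib3 past 2-fold (7.94%). Since the knockout to WT difference was used in the choice, nothing is read from these counts. In 9 of the 10 the day 0 library of Per2KO was the highest of the day, as it was for 27.4% of the genes tested. The 2 knockouts were compared with the same WT libraries, so their differences are set side by side and not counted as 2 findings.

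The medians followed the same course. The median log2 difference of the 10 genes from WT was -0.75 in Per1KO and 0.57 in Per2KO on day 0. It was -1.70 and -1.92 for day 3, then -2.48 and -2.56 for day 5. Over all genes tested the medians lay between -0.03 and 0.02. In the additive model of population and day, the log2 fold change of Fgf21 was -6.16 ± 0.85 (SE) in Per1KO and -5.58 ± 0.87 in Per2KO, and all 10 were negative in both, with medians of -1.79 and -1.37. That model averages over the days, so it merges the day 0 values with those of the later days.

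**Figure D2:**
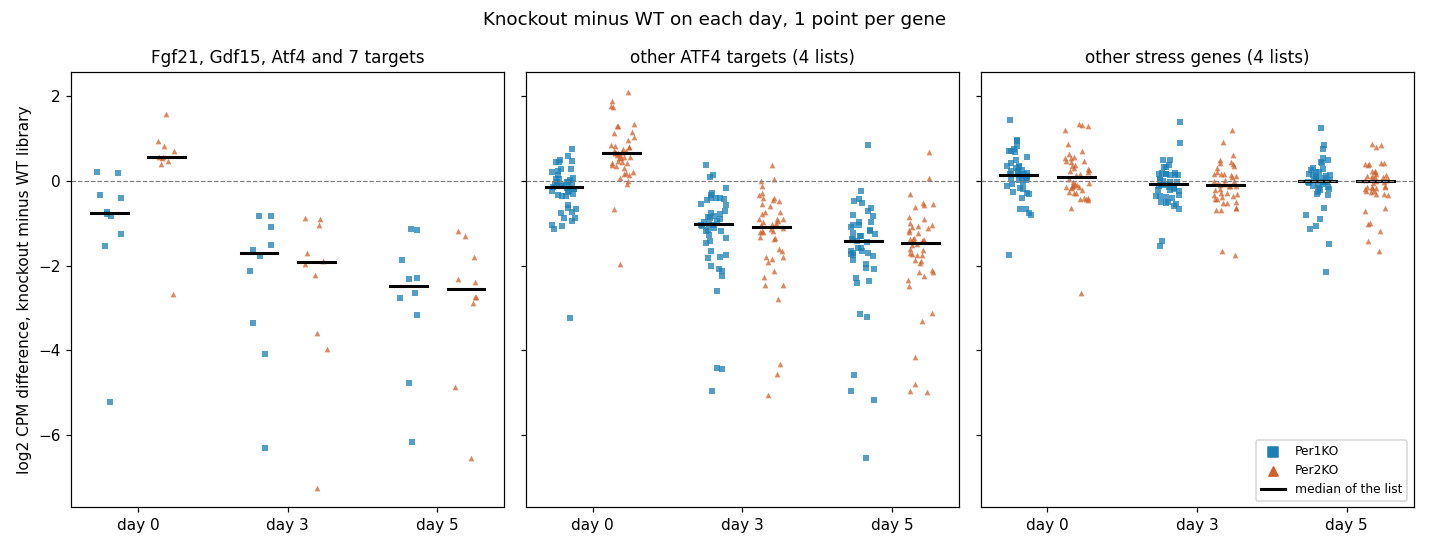
Difference in log2 CPM between each knockout library and the WT library of the same day (y axis), with 1 point per gene, blue squares for Per1KO, orange triangles for Per2KO and black bars for the median of the list. The medians of the 10 genes and of the other ATF4 targets lie at or above -0.75 on day 0 and at or below -1.02 on days 3 and 5, and those of the other stress genes stay between -0.10 and 0.15.

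The change over differentiation was then tested. This contrast is built from the same libraries and from the same differences from WT that were known at the choice. Its p-values for the 10 genes are therefore not independent of that choice and are no check of it. An interaction term asked whether the change from day 0 to days 3 and 5 differed between the 2 knockouts together and WT, using edgeR's quasi-likelihood test with Benjamini-Hochberg adjustment over all 13324 genes. Of the 10 genes, 4 were called, all with a more negative change in the knockouts, where 1.45% of the genes tested were called in that direction. The log2 interaction was -5.01 ± 0.90 (SE) for Trib3 (adjusted p = 0.0291), -2.71 ± 0.38 for Asns (0.0145), -3.21 ± 0.70 for Chac1 (0.0482) and -1.35 ± 0.23 for Psat1 (0.0247). In each of these 4 the ratio to day 0 was lower than the WT ratio in both knockouts on both days.

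The other 6 estimates were negative too but did not pass. They were -2.47 for Gdf15 (adjusted p = 0.0533), -2.40 for Sesn2 (0.0569), -1.16 for Atf4 (0.124), -3.02 ± 0.99 for Fgf21 (0.126), -1.64 for Atf3 (0.251) and -1.37 for Ddit3 (0.375). The median over the 10 was -2.43, against 0.01 over all genes tested. For Fgf21 the estimate was -0.58 without the day 0 library of Per2KO. The number called depended on single libraries, at 0 without Per2KO day 3 (0.203% of the genes tested were called lower in that fit), 1 without Per2KO day 0 (0.0826%), 2 without Per1KO day 5 (0.533%) and 7 without Per1KO day 0 (0.901%). The direction did not change for any of the 10 in any of these fits. A fit without WT day 0 cannot hold this term, so every interaction rests on that library. Genes of muscle differentiation moved the other way in the same test: Myog, which drives myoblasts into differentiation, had an interaction of 3.14 ± 0.25 (adjusted p = 0.00359), Ckm, muscle creatine kinase, 4.97 ± 0.66 (0.0126) and Acta1, skeletal actin, 4.10 ± 0.55 (0.0126), all named after their values were seen. On day 0 Myog was at 124 CPM in WT, 5.35 CPM in Per1KO and 2.91 CPM in Per2KO, and Acta1 was at 212, 9.17 and 3.11 CPM, so the WT cells of day 0 already had more RNA of these genes. The other 3 of the 6 markers, Myod1, Myf5 and Des, did not pass. The part of this difference in the results for the 10 genes was not tested.

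**Figure D3:**
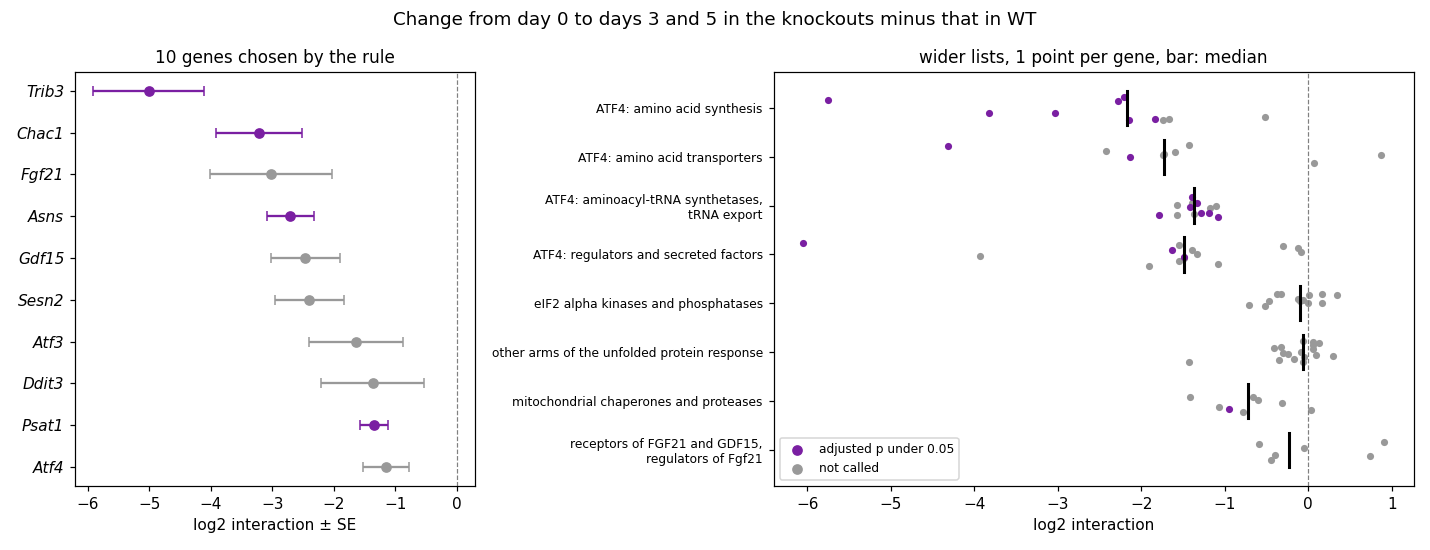
Change in log2 level from day 0 to days 3 and 5 in the knockouts minus that in WT (x axis), with SE bars for the 10 genes on the left and 1 point per gene with a median bar for 8 wider lists on the right; purple marks an adjusted p-value under 0.05. All 10 estimates on the left are negative with 4 called, and on the right the calls number 19 in the 4 lists of ATF4 targets and 1 in the 4 lists below them.

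Averaged over the 3 populations, part of the group was lower after day 0, but the average did not hold for every gene in WT. On day 3 against day 0, 5 of the 10 fell: Asns (log2 fold change -2.44 ± 0.59, adjusted p = 0.0169), Atf3 (-2.20 ± 0.54, 0.0174), Gdf15 (-2.25 ± 0.57, 0.0206), Psat1 (-1.08 ± 0.30, 0.0260) and Trib3 (-3.85 ± 1.16, 0.0368). In this comparison 16.9% of the genes tested were called lower. On day 5 against day 0, Gdf15 fell (-1.87 ± 0.59, 0.0349), with 22.9% of genes tested called lower; 6 of the 10 had an unadjusted p under 0.05, as 54.3% of the genes tested did. Fgf21 had positive estimates, 1.25 ± 0.88 on day 3 (adjusted p = 0.304) and 2.02 ± 0.86 on day 5 (0.0907), which did not pass. Between days 5 and 3 none of the 10 was called (smallest adjusted p 0.479, and 0 genes at an unadjusted p under 0.05), where 1.79% of the genes tested were; DESeq2 also called 0.

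The courses within each population differed. In WT, 9 of the 10 genes were higher on day 5 than on day 0, by 1.18-fold (Psat1) to 13.3-fold (Fgf21), and Atf3 was at 0.853 of its day 0 level. Only Fgf21 and Trib3 were at least 2-fold higher there (12.5% of genes tested) and none was 2-fold lower (11.4%). Between day 0 and day 3, Fgf21 was at least 2-fold higher in WT (9.61%) and Atf3 at least 2-fold lower (8.28%). In Per2KO all 10 were lower on day 5 than on day 0, from 0.880 for Fgf21 to 0.0276 for Trib3, 9 of them at least 2-fold (11.2% of genes tested), and on day 3 all 10 were at least 2-fold lower (8.65%). In Per1KO 9 were lower, with Trib3 at 0.146 and Gdf15 at 0.179 of day 0, and Fgf21 was higher; at least 2-fold lower were 6 on day 5 (12.1%) and 7 on day 3 (8.72%). A fit without the 3 WT libraries called 8 of the 10 lower on day 3, with 28.5% of the genes tested, and 8 on day 5, with 32.3%. Fits without Per1KO or without Per2KO called 0 and 1 lower on day 3 (3.08% and 4.41% of the genes tested) and 0 and 0 on day 5 (8.13% and 10.6%). Single libraries also decided these counts, given here with the share of the genes tested called lower in each fit. On day 3, 0 were called lower without Per1KO day 3 (7.51%) or without Per2KO day 3 (6.75%). The count was 1 without Per1KO day 0 (7.42%) or without Per2KO day 0 (10.3%), 3 without WT day 3 (18.5%) and 8 without WT day 0 (23.3%). On day 5, 8 were called lower without WT day 0, 3 without WT day 5 and 0 without any single one of the other libraries.

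The 2 knockouts, which had like depth, differed on day 0 and hardly later. On day 0 every one of the 10 was below its Per2KO level in Per1KO, from a ratio of 0.119 for Fgf21 (95% counting interval 0.0417 to 0.277) and 0.201 for Trib3 to 0.871 for Psat1. For 6 of the 10 the gap was at least 2-fold, as it was for 1.70% of the genes tested, and none was 2-fold above (1.07%). On day 3 the ratios ran from 0.908 (Trib3) to 2.06 (Fgf21) with a median of 1.06, and on day 5 from 0.825 (Gdf15) to 1.33 (Fgf21), with 0 of the 10 past 2-fold in either direction by log2 CPM with a prior count of 2 (0.113% of genes tested lower and 0.188% higher on day 3, 0.443% and 0.270% on day 5). With 1 library for each, the day 0 gap has no replicate check. Over the 3 days none of the 10 passed between the knockouts in edgeR (0 of 10, and 0 at an unadjusted p under 0.05) or in DESeq2. Of the genes tested, edgeR called 0.00%, and DESeq2 called 0.00% lower and 0.00751% higher. Among the 10, the widest edgeR estimates were -1.19 ± 1.03 for Trib3 and -0.82 ± 0.52 for Ddit3.

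**Figure D4:**
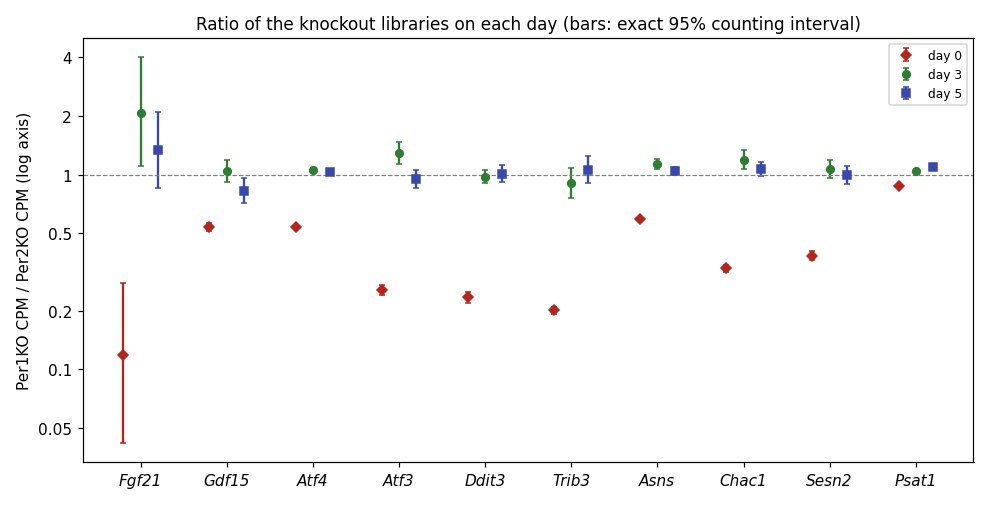
Ratio of the Per1KO to the Per2KO level (log axis) for each gene on day 0 (red diamonds), day 3 (green circles) and day 5 (blue squares), with exact 95% counting intervals as bars and a dashed line at equal levels. All 10 red diamonds lie below the line, from 0.119 to 0.871, and the later points lie close to it apart from Fgf21 on day 3 at 2.06.

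Because the 10 genes are few, 4 lists of other known ATF4 targets were examined, 48 genes of which 46 were tested (Cbs and Slc7a3 were below the filter). The lists were chosen with earlier results of these data known. Their interaction counts were added after seeing the data, so they are not an independent check. In the interaction test 19 of the 46 were called, all 19 with a more negative change in the knockouts, and 44 estimates were negative. The median was -1.55, against 0.01 over all genes tested, and the count of 41.3% stands beside 1.45% of all genes tested. By list, 7 of 10 genes of amino acid synthesis, 2 of 9 amino acid transporters, 7 of 13 genes of tRNA charging and export, and 3 of 14 regulators and secreted factors were called. Named after their values were seen, they include Cth, which makes cysteine, with an interaction of -5.76 ± 0.99 (adjusted p = 0.0260), and Slc7a11, the cystine importer, with -4.32 ± 0.77 (0.0285). Adm2, a secreted peptide, had -6.06 ± 0.67 (0.00853) and Phgdh, the first enzyme of serine synthesis, -1.83 ± 0.27 (0.0161). Cth was at 29.8, 23.4 and 47.9 CPM in WT on days 0, 3 and 5, at 20.0, 1.01 and 1.49 CPM in Per1KO and at 129, 0.931 and 1.46 CPM in Per2KO, so it was highest in Per2KO on day 0 and lowest there on day 3.

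This count also rested on single libraries. It was 2 without Per2KO day 3, where 0.203% of the genes tested were called lower, and 4 without Per2KO day 0 (0.0826%). It was 8 without Per1KO day 5 (0.533%), 10 without Per2KO day 5 (0.510%) and 30 without Per1KO day 0 (0.901%).

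In the additive comparison with WT, fewer of these targets passed. In Per1KO 7 of 46 were lower and 0 higher, beside 10.1% and 9.26% of all genes tested, and in Per2KO 1 was lower and 0 higher, beside 10.6% and 9.31% (19.9% in either direction). The share called lower was thus 15.2% in Per1KO and 2.17% in Per2KO. At an unadjusted p under 0.05, Per1KO had 28 of them lower with 1 higher, and Per2KO had 11 lower with 1 higher; of all genes tested, 4661 and 4681 had such a p in either direction. For Per1KO DESeq2 called 22 lower with 1 higher, and for Per2KO 12 with 0, with 13.4% and 14.1% of all genes tested called lower, so the count depended on the tool. The medians were -0.88 and -0.70, with 45 and 43 of 46 negative, while the medians over all genes tested were -0.02 and -0.01. Vldlr, a lipoprotein receptor, fell in Per1KO (-5.18 ± 1.05, adjusted p = 0.0133), and in Per2KO its estimate was -3.16 (0.0701). Slc7a5, which imports leucine, fell in Per1KO (-2.23 ± 0.57, 0.0332), and in Per2KO its estimate was -1.97 (0.0538). Ddit4, an inhibitor of mTORC1, fell in both (-1.72 ± 0.29, 0.00648, and -1.52 ± 0.30, 0.0108). Gpt2, a mitochondrial alanine aminotransferase, fell in Per1KO (-1.46 ± 0.39, 0.0392) and had -1.04 in Per2KO (0.112). In the tRNA charging list, where none was called, the most abundant members Nars and Gars had -0.03 and -0.48 in Per1KO and 0.20 and -0.36 in Per2KO.

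These counts changed with the libraries used. With the 3 day 0 libraries left out, 36 and 38 of the 46 were called lower in Per1KO and Per2KO, where 11.3% and 12.7% of the genes tested were. Without WT day 0 alone the counts were 38 and 34 (13.9% and 14.5% of the genes tested), and without Per2KO day 0 alone they were 18 and 18 (9.55% and 7.54%). With day 3 left out they were 1 and 0 (438 and 413 of all genes tested), and with day 5 left out 0 and 0 (333 and 405). Dropping any single one of the libraries WT day 3, Per1KO day 0, Per1KO day 3 or Per1KO day 5 gave 1 for Per1KO (4.05% to 9.46% of the genes tested). Dropping WT day 5 gave 2 (6.93%), and dropping Per2KO day 3 or day 5 gave 3 and 4 (6.63% and 7.15%). In library pairs, the median log2 difference of the 46 was -0.13 (Per1KO) and 0.66 (Per2KO) on day 0. It was -1.02 and -1.07 for day 3, then -1.43 and -1.45 for day 5. At least 2-fold lower were 24 and 26 of them on day 3, beside 7.67% and 8.46% of all genes tested, and 35 and 36 on day 5, beside 9.10% and 9.07%.

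Further genes not listed as ATF4 targets, called other stress genes here, were examined in the same way. They include regulators of eIF2 alpha, which act upstream of ATF4, and receptors of FGF21 and GDF15. Of 4 further lists (51 genes, 44 tested), 1 gene was called in the interaction test (2.27%), where 1.45% of the genes tested were called lower and 3.50% higher. It was Hspd1, a mitochondrial chaperonin (-0.95 ± 0.17, adjusted p = 0.0291), named here after its value was seen as well as by the additive rule. Their median interaction was -0.15, but the lists differed: it was -0.72 for the 8 mitochondrial chaperones and proteases, with 7 negative and 6 at an unadjusted p under 0.05, -0.10 for the genes of eIF2 alpha phosphorylation, -0.07 for the other arms of the unfolded protein response and -0.23 for receptors and regulators of Fgf21. The count was 8 without WT day 5, where 6.85% of the genes tested were called lower, and 3 without WT day 3 (3.02%). It was 0 without any single one of Per1KO day 3, Per1KO day 5 or the 3 Per2KO libraries (0.0826% to 1.03%). Against WT, the median estimates of these genes were 0.02 in Per1KO and 0.03 in Per2KO. Per1KO had 3 of them lower and 3 higher, beside 10.1% and 9.26% of all genes tested. Per2KO had 1 lower and 1 higher, beside 10.6% and 9.31%. The shares called lower were 6.82% in Per1KO and 2.27% in Per2KO. With any 1 library left out these counts lay between 0 and 6.

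Of the 17 genes of the other arms of the unfolded protein response, Hsp90b1, an endoplasmic reticulum chaperone, rose in both knockouts (0.68 ± 0.14, adjusted p = 0.0146, and 0.61 ± 0.14, 0.0217). Herpud1, of protein degradation at the endoplasmic reticulum, fell in Per1KO (-1.33 ± 0.37, 0.0433; -1.02 and 0.0997 in Per2KO), and so did Edem1 (-0.48 ± 0.13, 0.0414; -0.38 and 0.0868 in Per2KO). The 13 genes of eIF2 alpha phosphorylation and eIF2B had medians of 0.07 and 0.03, and Eif2ak2, the kinase activated by double-stranded RNA, rose in Per1KO (0.48 ± 0.14, 0.0483; 0.38 and 0.0960 in Per2KO). Among 8 mitochondrial chaperones and proteases Hspd1 rose in Per1KO on the average over the days (0.76 ± 0.21, 0.0432, with 0.69 and 0.0565 in Per2KO). In library pairs, the median log2 difference of these 8 genes from WT was 0.56 (Per1KO) and 0.80 (Per2KO) on day 0. It was -0.005 and -0.006 for day 3, then 0.03 and 0.00 for day 5.

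Receptors were also examined. Klb, the co-receptor that FGF21 needs, had at most 3 counts and at most 0.141 CPM in any library, at or under the 3 counts taken as the floor of detection. Gfral, the GDF15 receptor, had at most 4 counts in any library. The most abundant genes of this list were Fgfr1, at 205 to 375 CPM in WT and 236 to 291 CPM in the knockouts, and Pparg, at 4.74 to 18.1 and 8.84 to 26.8 CPM; neither passed against WT (adjusted p = 0.705 and 0.416 in Per1KO, 1.00 and 0.221 in Per2KO). Fgfr4, named after its values were seen, fell in both knockouts (-1.43 ± 0.29, 0.0131, and -1.74 ± 0.29, 0.00555).

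By Pearson correlation, the genes whose log2 CPM across the 9 libraries was most like that of Fgf21, among the 10785 genes whose mean reached 5 CPM, were G0s2 (Pearson r = 0.990), Alg1 (0.985), Use1 (0.983), Sphk1 (0.982) and Fkbp8 (0.979). With 9 libraries, of which the 3 WT libraries share a low depth and a lane suffix in their titles, these coefficients are descriptions. By Spearman correlation 6 genes reached 0.983 or more. With ties ordered by Pearson correlation, the first 5 were Mtln (1.00), and Alg1, Ulk3, Cdk5rap3 and Ric8a (0.983 each), of which 1, Alg1, is in both sets. G0s2, an inhibitor of triglyceride breakdown, was at 17.9, 103 and 93.7 CPM in WT on days 0, 3 and 5, and at 2.58 to 8.82 CPM in the 6 knockout libraries. None of the other 9 genes was among the closest: their coefficients with Fgf21 ran from 0.363 (Psat1) to 0.711 (Ddit3, ranked 1097). With Atf4 the same genes other than Fgf21 had coefficients of 0.889 (Psat1) to 0.978 (Sesn2), and Fgf21 had 0.633. Within the 6 knockout libraries alone, the coefficient with Atf4 was 0.874 to 0.988 for those genes and 0.183 for Fgf21. Fgf21 had only 6 to 52 counts in these libraries, so its coefficient is uncertain. The other 9 genes were all highest there on day 0 in Per2KO, and coefficients without that library were not computed.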

How the data were processed

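The authors deposited unnormalized counts of reads for each Ensembl gene, as whole numbers. Per the labels' protocols, poly(A) RNA entered TruSeq libraries; the submitters' processing notes name CASAVA 1.8, HISAT2 2.1.0 and build mm10. The counting program, annotation and use of strand are not given in the sources used here. Symbols and positions came from GENCODE M21 on GRCm38 (47224 of 47729 genes matched).

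The 13324 genes that reached 1 CPM in 3 or more of 9 libraries entered tests with edgeR 4.0.16 (limma 3.58.1, R 4.3.3): TMM scaling, robust quasi-likelihood tests, Benjamini-Hochberg adjustment, called under 0.05. Population and day were additive (4 residual degrees of freedom), so that days stand in for replicates; the interaction model left 3. P-values speak of these populations and of the spread between single libraries, which may be technical. Differences between library pairs used log2 CPM (prior count 2), and ratios were given exact 95% binomial counting intervals. DESeq2 1.42.0, other scalings, no filter, and leaving out libraries were alternatives. The test scripts were tested on simulated data. The 10 genes, the lists and the tests were chosen with earlier results of these data known; leaving out single libraries, and interaction counts over the wider lists, were added after seeing the data. In each wider list the text names the called genes with the 2 largest rises and 2 largest falls in the mean of both knockouts at a mean of at least 5 CPM, or else the 2 most abundant.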

Additional observations from a re-analysis of the deposited data

Results flagged for a closer look

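The change from day 0 to days 3 and 5 differed between the 2 knockouts together and WT, by the interaction test, for 4 of the 10 genes, where 1.45% of the genes tested were called in that direction. The number was 0 without Per2KO day 3 and 1 without Per2KO day 0. These calls are not independent of the choice of the 10 genes, which was made with results of these data known. The log2 interaction was -5.01 for Trib3, -2.71 for Asns, -3.21 for Chac1 and -1.35 for Psat1. Depth did not vary much between the days within a population, but it separated WT from the knockouts, and its part in these 4 results was not tested.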

How the results depend on the processing

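No paired analysis was possible because the labels give no replicate numbers that populations share; the day they do share is already a term of the additive model. No direction of a called value reversed in any alternative run. With total counts in place of TMM, which moved the median of all genes to -0.12 (day 3) and -0.17 (day 5) on the log2 scale, the counts that moved by over 1.5 times were other ATF4 targets higher in Per1KO (1), other stress genes higher in Per2KO (2) and members of the group lower on day 5 (4). With no filter on low counts, Per1KO had 1 ATF4 target lower and 1 higher, Per2KO had 2 other stress genes higher, 1 of the 10 was lower on day 3 and 0 on day 5, and the interaction called 2 of the 10 and 2 other stress genes. DESeq2 called 22 ATF4 targets lower and 1 higher in Per1KO, 12 lower in Per2KO, 4 other stress genes lower and 2 higher in Per2KO, and 5 of the 10 lower on day 5; its interaction called 7 of the 10, 34 ATF4 targets and 7 other stress genes. In fits of only the 6 libraries compared, 0 other stress genes were higher in Per1KO, 0 ATF4 targets lower and 0 other stress genes higher in Per2KO, 0 of the 10 lower on day 5 against day 0, and 2 of the 10 higher on day 5 against day 3.

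With a library, day or population left out, ATF4 targets called lower ranged from 0 to 38 in Per1KO and from 0 to 38 in Per2KO, and those called higher from 0 to 1 in each. Other stress genes called lower ranged from 0 to 4 in Per1KO and 0 to 6 in Per2KO, and higher from 0 to 4 in each. Of the 10 genes, 0 to 8 were lower on day 3 and 0 to 8 on day 5, and 0 to 1 higher on day 3, on day 5 and on day 5 against day 3. The interaction called 0 to 10 of the 10, 2 to 37 ATF4 targets lower, and 0 to 8 other stress genes lower and 0 to 1 higher. The cause of these changes was not tested. The interaction could not be estimated without WT day 0. Depth limits WT most, where 3 counts are worth 0.443 to 0.598 CPM.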
